A study of Mus musculus with 6 samples.

Results

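A run of genes on mouse chromosome 9, on the centromeric side of Pkm, differed in RNA level between bone marrow-derived macrophages (BMDMs) with and without a macrophage deletion of PKM2. The 10 genes described here were Cadm1, Ppp2r1b, Sik2, Dixdc1, Bace1, Gm16536, Pts, Rbm7, Nxpe1-ps and C030014I23Rik, out of 23935 gene symbols in the tables. They were selected on the adjusted p and fold change between these same libraries, so their differences are given as a description and not as a test. All 10 were among the 16516 genes with enough counts to be tested. The listing asked for genes 1 to 16 Mb from Pkm, and the members lay between 8.65 and 15.2 Mb from it.

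RNA-seq was made from 3 PKM2FL/FL and 3 PKM2ΔMAC mice, with 1 library per mouse. Both genotypes carry the floxed Pkm allele. The PKM2ΔMAC mice also carry LysM-Cre, a Cre recombinase inserted in the Lyz2 locus, which is active in macrophages and in other myeloid cells such as neutrophils. The controls were littermates without Cre, and the age of the marrow donors was not given in the sources used here. Male mice of both genotypes were used in the paper for liver injury and for flow cytometry of BMDMs. The paper does not state the sex of the RNA-seq donors. All 6 cultures were grown from bone marrow for 7 days in M-CSF, a macrophage growth factor. Priming, by the labels and methods, lasted 16 h in LPS (10 ng/mL) together with IFN-γ (25 ng/mL) in every culture, so that the series holds no unprimed library. Nos2, the inducible nitric oxide synthase that these agents are known to raise in mouse macrophages, had between 2 and 26 counts per library. This is a low level for cells labelled as primed, and the priming was not checked further.

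Genes next to an engineered allele can differ between mouse strains, since a targeted locus is inherited together with the chromosome around it until recombination separates them. A stretch that comes from the strain of the targeted cells is called a passenger segment. Here the controls carry the floxed allele as well, by their labels. The parental strain of the segment around Pkm in each mouse was not measured in these data, and a passenger origin of the differences was not tested.

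Ppp2r1b encodes a scaffold subunit of protein phosphatase 2A (PP2A), Sik2 a salt-inducible kinase that holds CRTC coactivators and class IIa histone deacetylases in the cytoplasm, and Dixdc1 a DIX-domain protein that joins Dishevelled in Wnt signalling. Cadm1 encodes an adhesion molecule of the immunoglobulin superfamily. Bace1 encodes the β-secretase that cleaves amyloid precursor protein, and Gm16536 is an RNA annotated antisense to it. Pts encodes the enzyme of the middle step of tetrahydrobiopterin synthesis. Rbm7 encodes the RNA-binding subunit of the nuclear exosome targeting (NEXT) complex, which delivers short-lived nuclear RNA to the exosome. Nxpe1-ps is a transcribed pseudogene of the NXPE family, and C030014I23Rik is a long intergenic noncoding RNA.

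The windows around the RefSeq starts of 4 members are shown since they cover both directions, with Ppp2r1b, Sik2 and Rbm7 higher and Pts lower in PKM2ΔMAC, and the letters searched for below. They are the RefSeq promoter sequences of GRCm38.p6, from 250 bases before to 50 bases after the start, 5′ to 3′ on the gene's strand. Capitals mark the letters ACGTG (core of hypoxia response elements) in Rbm7 and Sik2 and GAGGAA (core bound by PU.1 and other ETS factors) in Ppp2r1b, on whichever strand they were found. The windows are Ppp2r1b at chr9:50856674-50856973 on the plus strand, and on the minus strand Sik2 at chr9:51009024-51009323, Rbm7 at chr9:48495281-48495580 and Pts at chr9:50528607-50528906. The RefSeq start of Ppp2r1b lies 11.6 kb inside the gene as GENCODE bounds it, while those of Sik2, Rbm7 and Pts lie within 68 bases of the GENCODE start.
Ppp2r1b: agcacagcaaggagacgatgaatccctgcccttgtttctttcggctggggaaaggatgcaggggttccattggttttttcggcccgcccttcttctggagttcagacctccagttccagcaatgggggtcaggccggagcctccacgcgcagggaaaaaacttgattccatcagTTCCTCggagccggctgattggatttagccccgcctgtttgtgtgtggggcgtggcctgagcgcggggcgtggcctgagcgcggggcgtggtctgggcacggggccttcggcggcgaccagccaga
Sik2: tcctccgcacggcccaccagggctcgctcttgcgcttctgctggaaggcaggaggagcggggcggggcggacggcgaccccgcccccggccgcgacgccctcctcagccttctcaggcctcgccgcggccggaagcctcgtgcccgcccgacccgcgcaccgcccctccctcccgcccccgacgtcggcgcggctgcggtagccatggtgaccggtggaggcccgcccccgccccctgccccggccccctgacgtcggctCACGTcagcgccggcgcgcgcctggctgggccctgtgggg
Rbm7: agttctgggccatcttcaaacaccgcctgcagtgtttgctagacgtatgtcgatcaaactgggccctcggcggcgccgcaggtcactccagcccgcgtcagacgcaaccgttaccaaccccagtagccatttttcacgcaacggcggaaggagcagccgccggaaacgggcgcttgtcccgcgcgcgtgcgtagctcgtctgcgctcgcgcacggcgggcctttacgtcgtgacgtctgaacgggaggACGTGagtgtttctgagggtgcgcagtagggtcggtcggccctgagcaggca
Pts: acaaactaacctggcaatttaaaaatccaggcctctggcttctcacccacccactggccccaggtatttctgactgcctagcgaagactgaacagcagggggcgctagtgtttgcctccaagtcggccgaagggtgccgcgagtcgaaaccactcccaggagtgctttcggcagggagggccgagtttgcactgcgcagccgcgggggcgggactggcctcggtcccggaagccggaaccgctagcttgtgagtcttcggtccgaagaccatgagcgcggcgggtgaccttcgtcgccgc

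A window was given for 5 of the 10 members, with 6 windows in all since Dixdc1 has a pair of RefSeq starts, 1.78 and 11.5 kb inside its GENCODE bounds. Windows for Cadm1, Bace1, Gm16536, Nxpe1-ps and C030014I23Rik were not used here. ACGTG, searched on both strands, was in 2 of the 6 windows and in 19.6% of all 32851 windows of the same length. CACGTG, an E-box that contains ACGTG, was in 0 of the 6 and in 7.15% of all. GAGGAA was in 1 of the 6 and in 28.3% of all. TTCNNNGAA, the form bound by STAT factors, was in 0 of the 6 and in 8.30% of all, and the core of interferon-stimulated response elements was in 0 of the 6 and in 3.44% of all. The Sik2 window had a GC content of 80.0% with 43 CpG, the highest of the 6, and the upstream window of Dixdc1 at chr9:50737686-50737985 had 41.7% with 3 CpG. The medians over all windows were 52.7% and 7 CpG. A match is a description of these letters and not a site of binding.

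Depth was alike across the series, with totals between 49957449 and 54524651 counts. Scaled to library size alone, without TMM, 3 counts corresponded to between 0.0550 and 0.0601 CPM. Pkm, the targeted gene, was measured at 1714, 1698 and 1705 CPM (counts scaled to library size and by TMM) in PKM2FL/FL and at 987.2, 1212 and 1005 CPM in PKM2ΔMAC, a log2 ratio of -0.68 (SE 0.077, edgeR adjusted p = 0.00913, lower in 3 of 3 libraries). Gene counts sum all exons of Pkm and do not separate PKM1 from PKM2 or the floxed exons from the rest. The edgeR call of Pkm was lost when PKM2FL/FL library 1, 2 or 3 was left out (adjusted p between 0.0754 and 0.0993). Lyz2, the locus that holds Cre, had 17010, 17750 and 18720 CPM in PKM2FL/FL and 31.8, 24.3 and 29.2 CPM in PKM2ΔMAC. The summed level of 8 macrophage markers was 7590 to 7900 CPM in PKM2FL/FL and 7680 to 8420 CPM in PKM2ΔMAC, with 3 of the 8 higher in PKM2ΔMAC by their means, 2 without overlap and 1 called. The summed level of 8 neutrophil markers was 20.3 to 48.8 CPM and 90.1 to 170.0 CPM. All 8 were higher in PKM2ΔMAC by their means, 5 without overlap and 0 called by edgeR. For 5 stromal markers the summed level was 2990 to 3330 CPM in PKM2FL/FL and 2990 to 3820 CPM in PKM2ΔMAC. By their means 4 of the 5 were higher in PKM2ΔMAC, with 1 of the 5 without overlap and 0 called by edgeR. The summed level of 5 cell cycle genes was 257.0 to 274.0 CPM and 310.0 to 516.0 CPM. All 5 were also higher, 5 without overlap and 0 called by edgeR. The part of these cells and of cell cycling in the members' differences was not tested, and in bulk RNA fewer cells of a type and less RNA per cell cannot be told apart.

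Across the 10 members, 6 were higher and 4 were lower in PKM2ΔMAC, and the median size of the difference was 0.92 on the log2 scale, beside 0.093 over all tested genes. All 10 were called, as the listing requires, where a call means an edgeR quasi-likelihood adjusted p under 0.05 over all 16516 genes. Over all genes 0.412% were called, 0.285% higher and 0.127% lower. The CPM of the genotypes did not overlap for any of the 10, which was so for 17.2% of all genes. Of the members, 5 differed by at least 1 on the log2 scale. They lie on both strands, 5 on each, and 3 of each strand were the higher ones. The plot of member levels by library shows the 6 values of each gene.

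**Figure D1:**
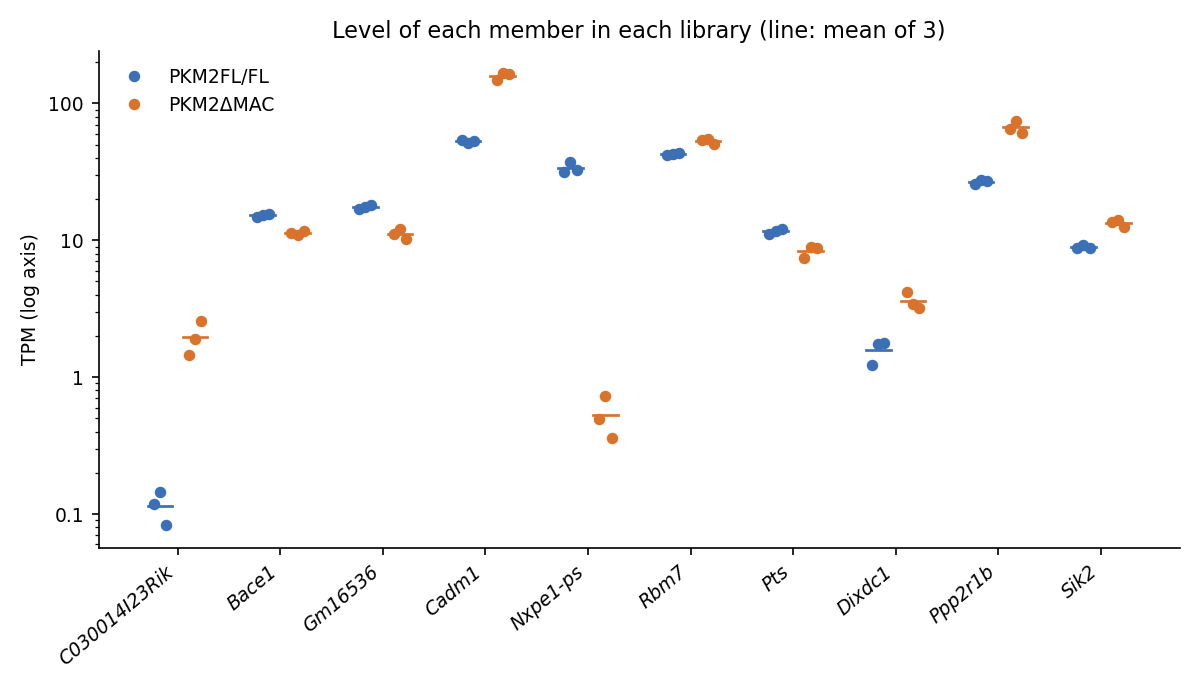
Level of each member in every library, in TPM on a log axis, with members in chromosome order, PKM2FL/FL libraries in blue, PKM2ΔMAC libraries in orange and a line at the mean of each genotype. The points of the genotypes do not overlap for any member, with Nxpe1-ps at means of 33.8 and 0.528 TPM and Cadm1 at 53.1 and 158.9 TPM.

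Ppp2r1b, at 50845301 to 50894229 on the plus strand of chromosome 9 (GRCm38, ENSMUSG00000032058.14), had 47.9, 50.01 and 50.04 CPM in PKM2FL/FL and 116.1, 125.5 and 108.8 CPM in PKM2ΔMAC. All 3 PKM2ΔMAC libraries were above all controls, and the nearest pair of libraries still differed 2.17-fold. The means were 49.3 ± 1.22 and 116.8 ± 8.39 CPM (SD, n = 3 each), with a log2 ratio of PKM2ΔMAC to PKM2FL/FL of 1.24 (SE 0.056). On the length-scaled TPM its level went from 26.8 to 66.8. Ppp2r1a, the other PP2A scaffold subunit, is encoded on chromosome 17 and had 225.5 TPM in PKM2FL/FL and 227.3 TPM in PKM2ΔMAC (log2 fold change -0.060, SE 0.043, adjusted p = 0.704). In TPM, the β scaffold RNA was therefore the less abundant of the pair in both genotypes.

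Sik2 (ENSMUSG00000037112.16) lies at 50892801 to 51009073 on the minus strand, tail to tail with Ppp2r1b. It had 24.3, 24.9 and 23.8 CPM in PKM2FL/FL and 35.96, 35.15 and 33.3 CPM in PKM2ΔMAC. The genotypes did not overlap, and the nearest libraries differed 1.34-fold. The means were 24.3 ± 0.534 and 34.8 ± 1.34 CPM (SD, n = 3 each), a log2 ratio of 0.52 (SE 0.054). The ends of Ppp2r1b and Sik2 overlap by 1429 bases, all of them exonic in both genes. Whether the counting used strand was not given in the sources used here, so reads in that overlap cannot be assigned with certainty to one of the genes.

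Dixdc1 (ENSMUSG00000032064.17), at 50662752 to 50739517 on the minus strand, had 3.52, 4.95 and 5.08 CPM in PKM2FL/FL and 11.4, 9.01 and 8.83 CPM in PKM2ΔMAC. The genotypes did not overlap, and the nearest libraries differed 1.74-fold. The means were 4.52 ± 0.863 and 9.76 ± 1.46 CPM (SD, n = 3 each), a log2 ratio of 1.11 (SE 0.17). In TPM its level was 1.59 in PKM2FL/FL and 3.60 in PKM2ΔMAC, above only C030014I23Rik in the controls.

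Pts (ENSMUSG00000032067.6), at 50521617 to 50528724 on the minus strand, went the other way. It had 19.5, 20.01 and 21.3 CPM in PKM2FL/FL and 12.5, 14.3 and 14.8 CPM in PKM2ΔMAC. All 3 PKM2ΔMAC libraries were below all controls, by at least 1.32-fold. The means were 20.25 ± 0.914 and 13.9 ± 1.22 CPM (SD, n = 3 each), a log2 ratio of -0.55 (SE 0.083). Pts is separated from Dixdc1 by 134 kb, with 7 tested genes between them.

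Between Pts and Dixdc1 lies Il18, which encodes the inflammasome cytokine IL-18 and is no member of the list. Il18 had 3.09, 3.87 and 4.02 CPM in PKM2FL/FL and 9.08, 8.32 and 9.37 CPM in PKM2ΔMAC, and was called higher (log2 fold change 1.29, SE 0.13, edgeR adjusted p = 0.00445, higher in 3 of 3 libraries). From Pts to Sik2, 15 genes were tested and 5 were called, namely 4 members and Il18. Bco2, a carotenoid-cleaving enzyme gene 4.36 kb from Pts, had 1.01, 1.14 and 1.38 CPM in PKM2FL/FL and 2.38, 2.20 and 2.42 CPM in PKM2ΔMAC. It was not called (log2 fold change 0.99, SE 0.19, adjusted p = 0.109). The bounds of Bco2 (minus strand, up to 50555181) and Il18 (plus strand, from 50554827) overlap. Reads there carry the uncertainty of strand given for Ppp2r1b and Sik2, so the values of Il18 and Bco2 may not be fully separate. Dlat, which encodes a pyruvate dehydrogenase subunit, lies 2.97 kb from Dixdc1 and stood at -0.006 on the log2 scale (SE 0.039, adjusted p = 0.98). Alg9, a glycosyltransferase gene 1.76 kb from Ppp2r1b, had 0.058 (SE 0.060, adjusted p = 0.818).

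Cadm1 (ENSMUSG00000032076.19), at 47530173 to 47857637 on the plus strand, was the most abundant member. It had 184.9, 171.3 and 180.5 CPM in PKM2FL/FL and 479.7, 512.6 and 535.3 CPM in PKM2ΔMAC. The lowest PKM2ΔMAC library was 2.59-fold above the highest control. The means were 178.9 ± 6.90 and 509.2 ± 27.96 CPM (SD, n = 3 each), a log2 ratio of 1.51 (SE 0.053). In TPM it went from 53.1 ± 1.43 to 158.9 ± 9.94 (SD, n = 3 each), and its rise made up 64.2% of the TPM gained by the 6 higher members together. The nearest tested genes, Bud13 on one side and Nxpe4 on the other, lay 1230 kb and 304 kb away.

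Nxpe1-ps (ENSMUSG00000109675.2), at 48418321 to 48431959 on the plus strand, had the largest difference of the 10. It had 879, 980 and 861 counts in PKM2FL/FL and 13, 19 and 9 counts in PKM2ΔMAC. In CPM these were 16.5, 18.9 and 16.95 against 0.245, 0.346 and 0.181, so the nearest libraries were 47.6-fold apart. The PKM2ΔMAC mean of 0.257 ± 0.0830 CPM was 1.48% of the control mean of 17.4 ± 1.27 CPM (SD, n = 3 each), a log2 ratio of -6.06 (SE 0.18). All 3 PKM2ΔMAC libraries remained above 3 counts, so some reads were assigned to the pseudogene in each of them. Nxpe4, an intact family member 18.3 kb away, had 4.74, 6.70 and 5.94 CPM in PKM2FL/FL and 7.46, 8.12 and 7.39 CPM in PKM2ΔMAC (log2 fold change 0.40, SE 0.14, adjusted p = 0.394). As members of one family share sequence, reads could be divided between the pseudogene and its relatives by the way the authors counted, and these levels carry that uncertainty.

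Rbm7 (ENSMUSG00000042396.10), at 48488701 to 48495299 on the minus strand, had the smallest difference. It had 59.9, 59.04 and 61.1 CPM in PKM2FL/FL and 73.1, 70.96 and 69.7 CPM in PKM2ΔMAC. The genotypes did not overlap, and the nearest libraries differed 1.14-fold. The means were 60.02 ± 1.02 and 71.25 ± 1.69 CPM (SD, n = 3 each), a log2 ratio of 0.25 (SE 0.039). Rbm7 was the member nearest to the threshold, with an adjusted p of 0.0465 by edgeR. Outside it, among others, were Zc3h12c (log2 fold change 0.50, adjusted p = 0.0773) and Scamp5 (-0.34, adjusted p = 0.0817), which lie in the same 16 Mb and were not called. Gm5617 starts 143 bases from Rbm7 on the other strand and had 3.93 and 4.77 CPM (log2 fold change 0.28, SE 0.19, adjusted p = 0.684).

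Bace1 (ENSMUSG00000032086.12), at 45838580 to 45864399 on the plus strand, had 27.1, 27.5 and 28.4 CPM in PKM2FL/FL and 19.7, 18.1 and 20.5 CPM in PKM2ΔMAC. The PKM2ΔMAC libraries were lower by at least 1.32-fold. The means were 27.7 ± 0.678 and 19.4 ± 1.20 CPM (SD, n = 3 each), a log2 ratio of -0.51 (SE 0.065). Gm16536 (ENSMUSG00000089810.1) lies inside Bace1, at 45856769 to 45858357 on the minus strand, and had 7.79, 7.87 and 8.21 CPM against 4.90, 5.03 and 4.51 CPM. It was also lower in all 3 PKM2ΔMAC libraries, with means of 7.96 ± 0.221 and 4.81 ± 0.267 CPM (SD, n = 3 each), a log2 ratio of -0.72 (SE 0.10).

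The exons of Bace1 and Gm16536 share 135 bases on opposite strands. Gm49338, an unconfirmed transcript on the minus strand, shares 951 exon bases with Bace1 and stood at -0.97 on the log2 scale (SE 0.20, adjusted p = 0.138). Rnf214, a ring finger gene, shares 975 exon bases with Bace1 and had -0.23 (SE 0.058, adjusted p = 0.225). Pcsk7, a proprotein convertase gene 42.1 kb from Bace1, had -0.32 (SE 0.067, adjusted p = 0.141). The values of these 5 genes are all negative, and 2 of the 5, Bace1 and Gm16536, were called. On the other side, Cep164 lies 9.89 kb from Bace1 and had -0.079 (SE 0.072, adjusted p = 0.784). Past Pcsk7 towards Pkm, A830035O19Rik had 1.24 (SE 0.34, adjusted p = 0.265), so the direction was not shared by all genes nearby. Reads of Bace1 and of its overlapping minus-strand genes cannot be told apart where the exons coincide unless strand was used in counting.

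C030014I23Rik (ENSMUSG00000060380.3), at 44468344 to 44482180 on the plus strand, was the member farthest from Pkm and, in the controls, the one with the lowest TPM (0.115 ± 0.0308, SD, n = 3). It had 6, 7 and 4 counts in PKM2FL/FL and 70, 90 and 117 counts in PKM2ΔMAC. The lowest PKM2ΔMAC library was 9.79-fold above the highest control in CPM. The means were 0.109 ± 0.0282 and 1.77 ± 0.532 CPM (SD, n = 3 each), a 16.3-fold difference and a log2 ratio of 3.99 (SE 0.37). With 4 to 7 counts per control library, the size of this fold is imprecise. Its exons share 1806 bases with Gm47204 and 636 bases with Gm47205, both on the minus strand, so its reads there carry the same uncertainty of strand as those of Ppp2r1b and Bace1. Bcl9l, a Wnt cofactor gene that begins 0.644 kb after its end, stood at 0.11 on the log2 scale (SE 0.064, adjusted p = 0.648).

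The order of the PKM2ΔMAC libraries was not the same across members. The highest PKM2ΔMAC library was replicate 1 for 3 members, replicate 2 for 3 and replicate 3 for 4. The lowest was replicate 3 for 6 of them. PKM2ΔMAC replicate 2 differed most from the others of its genotype over all genes, with chi-square values per degree of freedom of 43.1 and 53.8 against 10.1 for the other pair. Leaving it out kept all 10 members called, in a fit that called 299 genes in all.

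With Pearson's r of log2(CPM + 0.1) over the 6 libraries as the measure of likeness, Sik2 was closest to Ppp2r1b (0.993) and Gm16536 to Nxpe1-ps (0.995). The closest gene to Cadm1 was Tmsb4x on chromosome X (0.999), and the closest to Rbm7 was Hccs on chromosome X (0.992). Nxpe1-ps was closest to Gm26740 on chromosome 10 (0.999), C030014I23Rik to Ccr3 far telomeric on chromosome 9 (0.997) and Ppp2r1b to Gm47283 on chromosome Y (0.997). Bace1 was closest to Flcn and Pts to Rnf145, both on chromosome 11 (0.993 and 0.998), and Dixdc1 to Abi2 on chromosome 1 (0.989). With 3 libraries on either side of one difference, a gene that differs by genotype tends towards a high r, and the values describe the 6 libraries only. The number of genes with an r of at least 0.99 was 0 for Dixdc1 and up to 12 for the others. Flcn, Rnf145 and Abi2 were themselves not called (adjusted p 0.204, 0.475 and 0.265). Gm47283 was called higher in PKM2ΔMAC, with a log2 fold change of 8.41 (edgeR adjusted p = 0.0146).

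The members were not the whole of the difference on this side of Pkm. Within 16 Mb on the centromeric side 173 genes were tested and 13 were called, 7 higher and 6 lower (7.51%). On the telomeric side, over the same distance, 129 genes were tested and 0 were called by edgeR. At an unadjusted p under 0.05 the numbers were 50 genes on the centromeric side (28.9%) and 9 on the telomeric side (6.98%), beside 9.83% of all genes. DESeq2 called 26 and 2 genes on these sides. The median log2 fold change was -0.0057 on the centromeric and -0.0047 on the telomeric side, both close to the -0.0002 of all genes. The sizes differed more, with a median absolute log2 fold change of 0.161 on the centromeric side against 0.078 on the telomeric side and 0.093 over all genes.

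These counts include the members, which were listed for their calls. Without them, 163 genes remained on the centromeric side. Of these, 40 had an unadjusted p under 0.05 (24.5%), and 53 had genotypes that did not overlap (32.5%), beside 17.2% of all genes and 17.1% of the telomeric side. The plot of fold changes along the chromosome shows called genes of both directions among many genes near 0. The number of called genes on the centromeric side ranged from 6 to 22 when 1 library was left out. It was 6 without PKM2FL/FL library 1 or 3, 7 without PKM2FL/FL library 2, 8 without PKM2ΔMAC library 1 and 22 without PKM2ΔMAC library 2, where the telomeric side had 4. Among the centromeric genes that are not members, the share with an unadjusted p under 0.05 was between 19.4% and 26.3% with 1 library left out. On the telomeric side it was between 3.62% and 14.0%, and over all genes between 6.45% and 13.3%. The highest value of each of these 3 came from the fit without PKM2ΔMAC library 2. Genes on 1 chromosome segment are not independent of each other, and the difference between the sides was not tested.

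**Figure D2:**
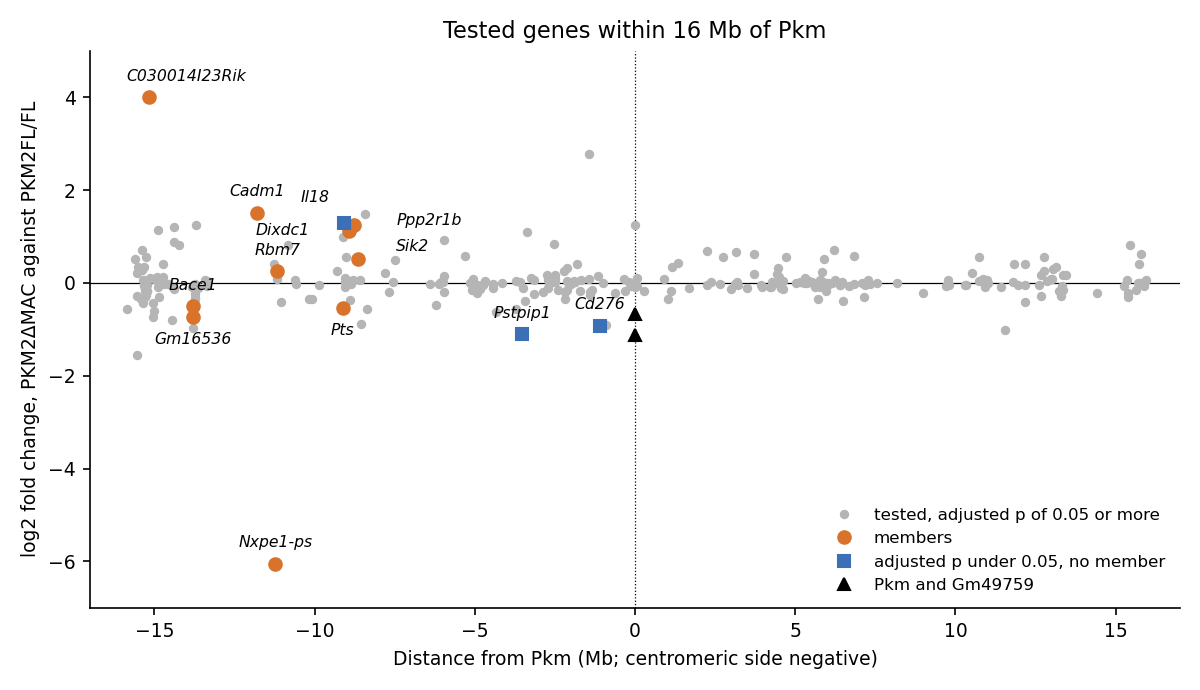
Log2 fold change of PKM2ΔMAC against PKM2FL/FL for every tested gene within 16 Mb of Pkm by its distance in Mb, with negative distances on the centromeric side, members in orange, other called genes as blue squares, Pkm and Gm49759 as triangles and genes not called in grey. The members sit between 8.65 and 15.2 Mb on the centromeric side, from Nxpe1-ps at -6.06 to C030014I23Rik at 3.99. No gene is called by edgeR on the telomeric side.

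The 3 called genes of this side that are not members were Il18, given above, Cd276 and Pstpip1. Cd276, which encodes the immune checkpoint ligand B7-H3, lies 1.10 Mb from Pkm and had 19.98, 19.65 and 20.98 CPM in PKM2FL/FL and 11.8, 8.83 and 11.2 CPM in PKM2ΔMAC (log2 fold change -0.93, SE 0.11, edgeR adjusted p = 0.00935, lower in 3 of 3 libraries). The call of Cd276 was lost without PKM2FL/FL library 1, 2 or 3 (adjusted p 0.0742, 0.0754 and 0.11). Pstpip1, which encodes a cytoskeletal adaptor of haematopoietic cells, lies 3.53 Mb from Pkm and had 78.6, 78.3 and 82.04 CPM in PKM2FL/FL and 34.2, 34.8 and 41.8 CPM in PKM2ΔMAC (log2 fold change -1.11, SE 0.076, edgeR adjusted p = 0.000516, lower in 3 of 3 libraries). Gm49759, an unconfirmed transcript that overlaps Pkm itself, stood at -1.12 on the log2 scale (SE 0.083). The tested gene just past 16 Mb was Trim29, with 0.99 (SE 0.53, adjusted p = 0.595).

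Calls by distance follow the listing, since 10 of the 13 are members, of which 7 lie from 8 to 12 Mb and 3 from 12 to 16 Mb. Without the members, 1 of 26 tested genes was called from 8 to 12 Mb and 34.6% had genotypes that did not overlap, and 0 of 55 were called by edgeR from 12 to 16 Mb, where 18 had an unadjusted p under 0.05 and 45.5% did not overlap. Nearer to Pkm, 2 of 55 were called from 0 to 4 Mb with 29.1% not overlapping, and 0 of 27 by edgeR from 4 to 8 Mb with 2 at an unadjusted p under 0.05 and 11.1% not overlapping. Beyond 16 Mb on the centromeric side 0 of 201 tested genes were called by edgeR, 22 had an unadjusted p under 0.05 (10.9%) and 21.4% did not overlap. From 16 to 20 Mb on that side 5 of 17 had an unadjusted p under 0.05 (29.4%) and 41.2% did not overlap, and from 20 to 24 Mb 3 of 24 (12.5%) and 25.0%. On the telomeric side from 16 to 20 Mb the values were 2 of 18 (11.1%) and 33.3%, and shares over so few genes are imprecise. Beyond 16 Mb on the telomeric side 2 of 392 were called, Smarcc1 (log2 fold change 0.35, SE 0.038, adjusted p = 0.00724) and Ccr3 (1.06, SE 0.097, adjusted p = 0.00263). On the whole chromosome 17 of 897 tested genes were called (1.90%), of which 10 are the listed members and 7 are not. The shares were 1.73% on chromosome X (9 of 521) and 1.58% on chromosome 10 (12 of 758), beside 0.412% of all genes. On chromosome Y 2 of 8 tested genes were called (25.0%), the highest share of any chromosome but over few genes.

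**Figure D3:**
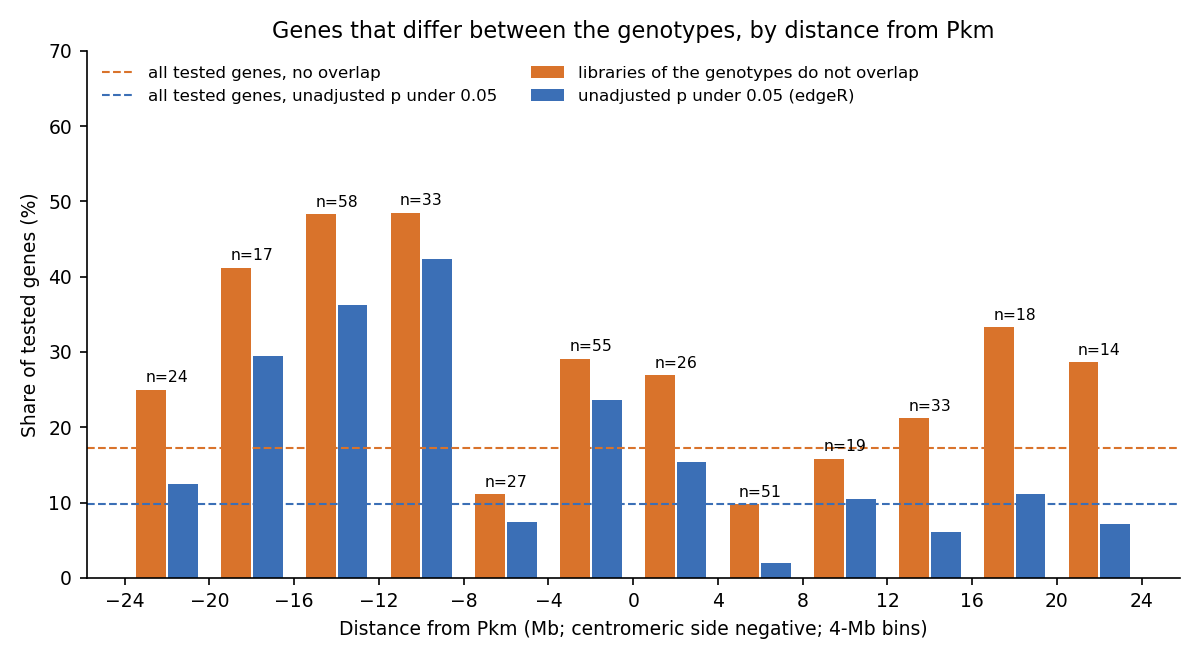
Share of tested genes, in percent, whose CPM did not overlap between genotypes (orange bars) or whose unadjusted edgeR p was under 0.05 (blue bars), in 4 Mb steps of distance from Pkm with negative distances on the centromeric side, n as the genes tested in a step and dashed lines as the shares over all genes. The steps from 8 to 16 Mb on the centromeric side, members included, reach 48.5% and 48.3% without overlap against 17.2% over all genes, and steps with under 20 genes are imprecise.

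Within the 6.54 Mb from the first to the last member 65 genes were tested. Of these, 11 were called, the 10 members and Il18. The 55 genes of this span that are not members had a median absolute log2 fold change of 0.129, beside 0.093 over all genes. Of these 55, 17 had an unadjusted p under 0.05 (30.9%) and 36.4% had genotypes that did not overlap. Sik3, the paralogue of Sik2, lies in the span and stood at 0.056 on the log2 scale (SE 0.045, adjusted p = 0.755). The nearest tested genes on either side of the members were 15 distinct non-members. Of the 15, 0 were called by edgeR. The listing all but fixed this, since it took every called gene from 8 to 16 Mb on this side except Il18. An unadjusted p under 0.05 was found for 4 of the 15, beside 9.83% of all genes. The log2 fold changes of the 15 ran from -0.97 (Gm49338) to 0.99 (Bco2). The gaps between successive members ran from an overlap (Bace1 with Gm16536, Ppp2r1b with Sik2) to 2030 kb between Rbm7 and Pts.

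Genes that work with the members were put in 8 lists, and 97 of these partner genes were tested. In all, 0 were called by edgeR, beside 0.412% of all genes. An unadjusted p under 0.05 was found for 17 (17.5%, beside 9.83% of all genes). The genotypes did not overlap for 24 (24.7%, beside 17.2% of all genes). DESeq2 called 2, Agmo and Tiam1. The median log2 fold change was 0.0002, beside -0.0002 over all genes. On the log2 scale 93 of the 97 lay within 0.5 of 0, a range for which no share over all genes is given.

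Of 20 PP2A subunits and regulators 0 were called, 2 had an unadjusted p under 0.05, and log2 fold changes ran from -0.21 (Ppp2r3c) to 0.082 (Ppp2ca, a catalytic subunit). Ppp2cb, the other catalytic subunit, had 140.4 and 145.1 TPM in PKM2FL/FL and PKM2ΔMAC. Of 14 genes of the SIK pathway 0 were called and 2 had an unadjusted p under 0.05, with values from -0.16 (Hdac7) to 0.18 (Sik1). Crtc2 and Crtc3, which encode coactivators held back by SIKs, had -0.066 (SE 0.042) and 0.010 (SE 0.041). Of 13 genes of DIX-domain Wnt signalling 0 were called and 3 had an unadjusted p under 0.05, among them Apc, a scaffold of the β-catenin destruction complex, with -0.16 (SE 0.036, adjusted p = 0.183). Axin2, a target gene of Wnt signalling, had 1.74 and 1.09 CPM and a log2 ratio of -0.68 (SE 0.25, adjusted p = 0.421).

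Of 15 tested genes around BACE1 0 were called and 3 had an unadjusted p under 0.05. App, its best known substrate, had 237.0 TPM in PKM2FL/FL and 243.4 TPM in PKM2ΔMAC (log2 fold change -0.033, SE 0.044, adjusted p = 0.856). Gga3, an adaptor that sorts BACE1 to lysosomes, had -0.17 (SE 0.040, adjusted p = 0.199). Of 7 tested tetrahydrobiopterin genes 0 were called by edgeR and 1 had an unadjusted p under 0.05. Gch1 and Spr, which encode the enzymes before and after the step of Pts, had log2 fold changes of 0.11 (SE 0.080) and -0.003 (SE 0.050). Agmo, a tetrahydrobiopterin-dependent lipid oxidase gene, had 5.29 and 3.48 CPM and a value of -0.61 (SE 0.14, adjusted p = 0.19). The DESeq2 adjusted p of Agmo was 0.0167.

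Of 17 genes of the NEXT complex and exosome 0 were called and 1 had an unadjusted p under 0.05. Zcchc8 and Mtrex, which encode the other NEXT subunits, had log2 fold changes of 0.032 (SE 0.041) and 0.062 (SE 0.044). Of 8 tested nectin and CADM genes 0 were called by edgeR, but 4 had an unadjusted p under 0.05. Tiam1, which encodes a Rac exchange factor that binds CADM1, had 18.2, 19.1 and 18.2 CPM in PKM2FL/FL and 23.6, 25.7 and 22.7 CPM in PKM2ΔMAC (log2 fold change 0.38, SE 0.068, adjusted p = 0.0773). Its DESeq2 adjusted p was 0.00165. Cadm3 had 4, 6 and 6 counts in PKM2FL/FL and 36, 27 and 11 counts in PKM2ΔMAC (2.16, SE 0.55, adjusted p = 0.225). Of 3 tested NXPE genes 0 were called and 1, Nxpe4, had an unadjusted p under 0.05, and the abundant Nxpe5 had 99.6 and 101.7 TPM.

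**Figure D4:**
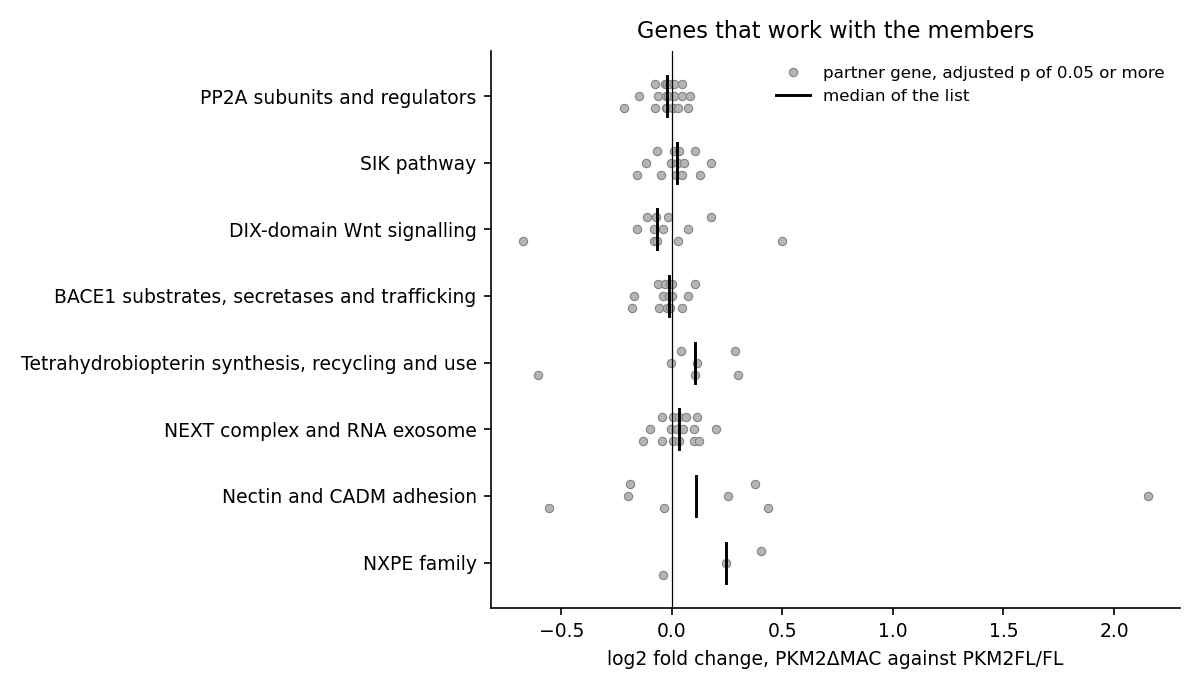
Log2 fold change of PKM2ΔMAC against PKM2FL/FL for each tested partner gene, in 8 lists by the member they work with, with a bar at the median of each list. None passed the adjusted p of 0.05 in edgeR, 93 of 97 lie within 0.5 of 0, and Cadm3 is the highest at 2.16.

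Across 14 alternative ways of processing, every member kept its direction in each fit that included it, 138 fits in all. Cadm1, Ppp2r1b and Nxpe1-ps were called in all of theirs, with log2 fold changes of 1.47 to 1.58, 1.19 to 1.31 and -6.33 to -4.51. Rbm7 was called in 4 of 14 (0.23 to 0.32, adjusted p up to 0.278), Dixdc1 in 6 (0.83 to 1.20), Bace1, Gm16536 and Pts in 7 each, Sik2 in 10 and C030014I23Rik in 10 of 13. For C030014I23Rik the value fell to 1.39 on log2(TPM + 1), a scale that understates the change of low genes. Since these fits reuse the libraries that chose the members, they show how the values move with the processing and are no separate support.

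**Figure D5:**
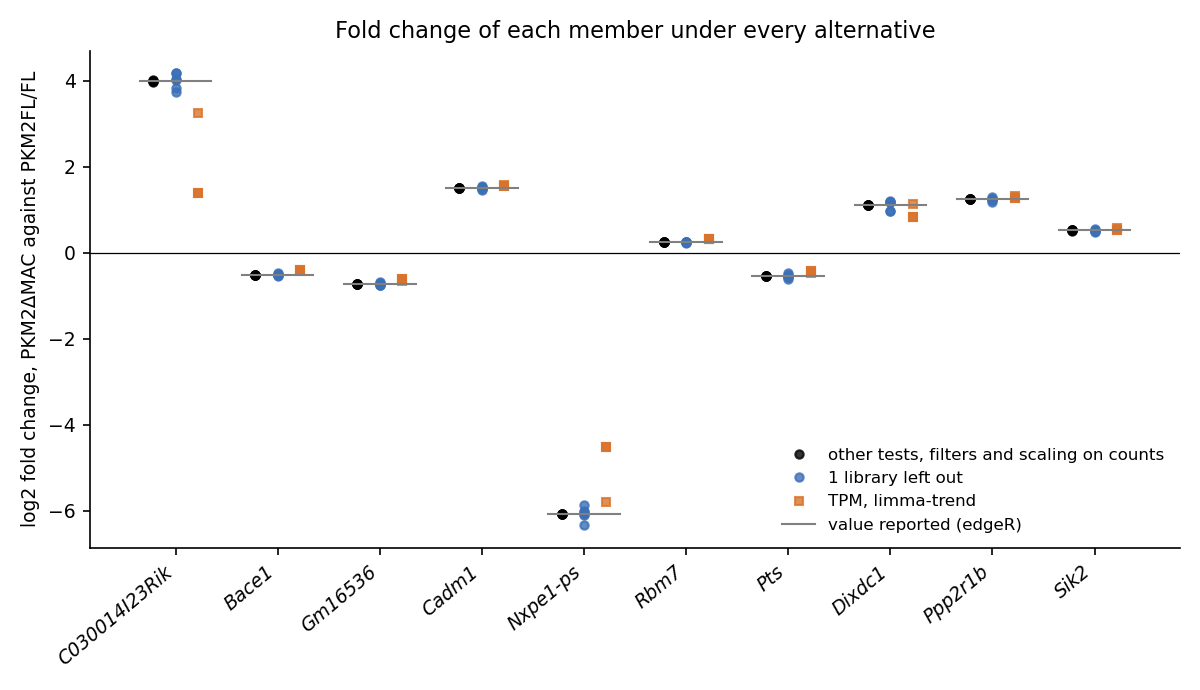
Log2 fold change of each member under 14 alternatives, with other tests, filters and scaling on counts in black, fits with 1 library left out in blue and limma-trend on TPM in orange, and the reported edgeR value as a line. Every point lies on the same side of 0 as the line, and the TPM points of C030014I23Rik and Nxpe1-ps, down to 1.39 and up to -4.51, lie farthest from theirs.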

How the data were processed

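RNA-seq of 3 PKM2FL/FL and 3 PKM2ΔMAC BMDM cultures was used. For each gene symbol the authors deposited unnormalized counts, and in another table TPM, of the same 6 libraries. The submitters' processing notes name FastQC 0.12.1, Trim Galore 0.6.10, HISAT2 2.2.1, SAMtools 1.19.2, Subread 2.0.6 and the mouse build mm10. Annotation, strand setting and treatment of multiply mapped reads were not given in the sources used here. TPM sums were 999626 to 999691, and 0 columns were unmatched to a library.

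Counts were fitted for all genes with edgeR 4.0.16 (R 4.3.3, limma 3.58.1; filterByExpr, TMM factors 0.980 to 1.04, robust quasi-likelihood test, genotype as the only term), with Benjamini-Hochberg adjustment over 16516 genes and calls at an adjusted p under 0.05. Every adjusted p in the text is from that test unless DESeq2 or limma-trend is named. The SE of a log2 value is its size divided by the square root of the F statistic of that test. DESeq2 gave a larger SE for every member, with 0.26 against 0.18 for Nxpe1-ps and 0.49 against 0.37 for C030014I23Rik. CPM values are scaled by TMM, except the range given for 3 counts. With 3 libraries per genotype an exact permutation test of 1 gene cannot go below p = 0.10, so none is quoted. The labels do not say more of the mice than genotype and number, so p-values measure the spread between these libraries.

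Positions were taken from GENCODE M21 (GRCm38), which holds 23349 of the 23935 symbols, and distance was measured from Pkm to the nearest end of a gene. Named genes were the members, Pkm, Lyz2, called genes within 16 Mb of Pkm, genes adjoining or overlapping a member, partner genes by level or call, and the gene most like each member among those of at least 1 CPM. Nos2, partner genes outside the top 3 by level, Sik3, A830035O19Rik, and the genes at the thresholds and beyond 16 Mb were named once their values had been seen. The members, the gene lists and the marker lists were chosen with earlier results of these data known. Lists of other cells and their summed CPM in PKM2FL/FL and PKM2ΔMAC were B cell (71.6 to 81.3, 64.6 to 113.0), T and NK cell (14.9 to 19.7, 9.69 to 20.5), mast cell and basophil (8.13 to 8.97, 6.67 to 11.2), dendritic cell (4.29 to 4.60, 4.04 to 4.79), stromal (2990 to 3330, 2990 to 3820) and erythroid (1.12 to 1.50, 1.33 to 2.53). No defining marker in the tables was at 0 in all libraries, and Fcer1a had at most 3 counts in each.

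Alternatives were DESeq2 1.42.0, relative log expression factors, no filter, at least 10 counts in every library, a replicate block, each library left out, an 8 Mb window, and limma-trend on the deposited TPM in log2 after adding 1 (with and without a mean TPM of at least 1) or 0.1. Their use on genes with an unadjusted p under 0.05, with and without the members, was added after seeing the data. The functions were tested on simulated data. Some genes are not reported here.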

Additional observations from a re-analysis of the deposited data

How the results depend on the processing

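All genes called numbered 68. The number was 302 with DESeq2, 120 with no filter on low counts, and 41, 32 and 36 with limma-trend on log2(TPM + 1), on log2(TPM + 0.1) and on log2(TPM + 1) with no filter. It ranged from 22 to 299 with 1 library left out, with 26, 27 and 22 without PKM2FL/FL library 1, 2 and 3 and 299 without PKM2ΔMAC library 2. Of the 10 members, 5, 4 and 3 were called in the same limma-trend fits, and 4 to 10 with 1 library left out. With at least 10 counts in every library 7 of the 8 members fitted were called. Within 16 Mb centromeric of Pkm the 13 called genes became 26 with DESeq2, 8, 7 and 6 with limma-trend, 2 in an 8 Mb window, and 6 to 22 with 1 library left out. Telomeric of Pkm the 0 called genes became 2 with DESeq2 and 0 to 4 with 1 library left out. The 9 telomeric genes with an unadjusted p under 0.05 became 17 with limma-trend and no filter (8.99%, beside 10.3% of all genes). With 1 library left out they became 5 to 19. The 5 came without PKM2FL/FL library 2 (3.62%, beside 6.85% of all genes) and the 19 without PKM2ΔMAC library 2 (14.0%, beside 13.3%). Partner genes called, 0 by edgeR, were 2 with DESeq2, 1 with no filter and 0 to 1 with 1 library left out (Tiam1, without PKM2ΔMAC library 2). Pkm was at -0.61 and no longer past the threshold in the 3 limma-trend fits (adjusted p 0.119, 0.118 and 0.156), and at -0.78 to -0.62 with 1 library left out. The cause of these moves was not tested. On TPM the median log2 fold change of all genes was 0.060 to 0.066. Calls that were higher in PKM2ΔMAC made up 69.1% by the main processing, 78.0% on log2(TPM + 1) and 54.8% without PKM2ΔMAC library 2. No value changed sign among the members, Pkm and the other genes refitted. 

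With the replicate block 82 genes and 7 members were called, without Gm16536, Rbm7 and Dixdc1, and 16 telomeric genes had an unadjusted p under 0.05. Same-numbered libraries deviated together only weakly (r = 0.0695, 0.12 and 0.0114), so the numbers were not taken as pairs. Against this choice, 5 of 6 libraries correlated best with their own number. Depth limits C030014I23Rik, with 4 to 7 counts in controls, and Nxpe1-ps, with 9 to 19 counts in PKM2ΔMAC.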
